A study of Mus musculus with 14 samples.

Results

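The H3K27ac peaks of vehicle-treated mouse muscle stem cells (MuSCs) were divided by whether SMAD4 was listed in them. An H3K27ac peak counted as carrying SMAD4 when a SMAD4 peak of the same condition overlapped it by at least 1 bp. Of 67790 H3K27ac peaks, 6691 carried SMAD4, and 61099 did not. The MuSCs came from muscles of female mice aged 9 weeks with the genotype C57BL/6N(Tg(Pax7-EGFP)Tajb), in which a green fluorescent reporter of the stem cell factor PAX7 served to sort the cells. They were cultured at 3% O2, kept for 6 h without serum in the presence of 200 ng/mL of the BMP-trapping receptor fragment BMPR-1A-Fc, and then given vehicle (4 mM HCl with 0.1% BSA) for 1 h. For CUT&Tag, in which the transposase Tn5 is tethered to an antibody and tags the DNA around it, 100000 cells fixed for 2 min in 0.1% formaldehyde were used per condition, and libraries were amplified over 13 cycles. Each antibody had 2 biological replicates per condition, combined by the authors into 1 consensus list. The division and the results on it thus rest on 4 of the 14 samples of the series. The last comparison of the Results also used lists of phosphorylated SMADs and lists from cells given BMP6 for 1 h instead of vehicle. With these lists, 12 of the 14 samples enter. The no-antibody controls are not analysed here. The cells were cultured for 1 day before sorting and 2 days after it and all saw the BMP trap and serum starvation, so they stand for cultured MuSCs and not for quiescent ones in muscle.

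SMAD4 is the partner that receptor-activated SMADs share. BMPs act through SMAD1, SMAD5 and SMAD9, and TGF-beta and activins through SMAD2 and SMAD3, and each of these enters chromatin with SMAD4. SMAD proteins bind short DNA words, a SMAD box or GC-rich sites, with low affinity, and they often do so beside other transcription factors. Acetylation of histone H3 at lysine 27 is placed by the coactivators p300 and CBP and marks active promoters and enhancers. In MuSCs, BMP signalling is known for maintaining proliferation and restraining differentiation, and its classical targets are the Id genes, which oppose the myogenic E-box factors. The comparison asks where SMAD4 lay on active chromatin when no BMP had been added.

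The sequences under the strongest SMAD4 summits, which carry the comparison of motifs further on, are shown first. They were read from the plus strand of GRCm39, centred on the SMAD4 summit over 200 bp, and shortened where an annotated untranslated region began. By rule they belong to the leading peaks by SMAD4 signal at a transcription start site (TSS), by SMAD4 signal at distal sites and by number of SMAD4 summits. The windows near Csf1 and Id1 were added after their values were seen, the first as the strongest distal window with a SMAD palindrome and the second because Id1 is a classical BMP target. Capitals mark any match, on either strand and including matches that overlap, to the SMAD palindrome GTCTAGAC, the SMAD box CAGAC, the BMP-responsive words GGCGCC or GGAGCC, the AP-1 site TGAGTCA or TGACTCA, the E-box CAGCTG preferred by myogenic factors, the TEAD word GGAATG, the RUNX word TGTGGT and the ETS word CCGGAA. The windows are Arrdc3 (chr13:81033705-81033904), Skil (chr3:31148694-31148815), intergenic near Dpcd (chr19:45536772-45536971), intergenic near Gadd45g (chr13:52179389-52179588), in Pax7 (chr4:139550737-139550936), in Iffo1 (chr6:125126193-125126334), upstream of Id1 (chr2:152576953-152577152) and intergenic near Csf1 (chr3:107683737-107683936).
Arrdc3: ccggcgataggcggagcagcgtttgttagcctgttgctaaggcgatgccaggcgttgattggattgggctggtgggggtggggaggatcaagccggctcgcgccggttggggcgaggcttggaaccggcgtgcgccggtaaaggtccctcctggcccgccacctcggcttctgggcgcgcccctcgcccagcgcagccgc
Skil: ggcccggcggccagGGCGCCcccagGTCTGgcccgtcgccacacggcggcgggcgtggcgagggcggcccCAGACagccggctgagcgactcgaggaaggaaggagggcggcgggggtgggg
Dpcd: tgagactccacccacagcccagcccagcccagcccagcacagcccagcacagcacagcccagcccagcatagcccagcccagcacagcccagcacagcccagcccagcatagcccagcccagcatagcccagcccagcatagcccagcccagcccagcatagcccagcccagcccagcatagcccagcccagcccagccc
Gadd45g: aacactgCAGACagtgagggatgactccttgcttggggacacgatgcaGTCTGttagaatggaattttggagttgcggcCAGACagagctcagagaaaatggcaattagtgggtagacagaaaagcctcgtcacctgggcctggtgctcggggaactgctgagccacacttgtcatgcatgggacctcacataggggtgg
Pax7: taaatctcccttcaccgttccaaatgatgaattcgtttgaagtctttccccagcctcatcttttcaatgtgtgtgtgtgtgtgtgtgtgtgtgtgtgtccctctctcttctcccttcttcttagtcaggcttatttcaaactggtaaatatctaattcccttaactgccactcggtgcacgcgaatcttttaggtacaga
Iffo1: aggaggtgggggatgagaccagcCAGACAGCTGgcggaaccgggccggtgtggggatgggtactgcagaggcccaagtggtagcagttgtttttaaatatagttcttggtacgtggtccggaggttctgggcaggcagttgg
Id1: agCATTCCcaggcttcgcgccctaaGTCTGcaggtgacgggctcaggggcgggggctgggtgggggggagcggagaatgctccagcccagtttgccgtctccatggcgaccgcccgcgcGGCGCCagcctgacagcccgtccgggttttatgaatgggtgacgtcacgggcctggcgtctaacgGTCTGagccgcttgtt
Csf1: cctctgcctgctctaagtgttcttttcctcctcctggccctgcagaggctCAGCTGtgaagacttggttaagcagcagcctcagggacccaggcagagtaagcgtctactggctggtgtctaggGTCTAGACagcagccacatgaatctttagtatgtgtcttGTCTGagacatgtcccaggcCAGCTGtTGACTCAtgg

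The windows were unlike each other. The Skil window held 2 SMAD boxes and 1 GC-rich word within 122 bp, and 81.1% of its bases were G or C. The Gadd45g window held 3 SMAD boxes, and the Id1 window held 2 SMAD boxes with 1 GC-rich word between them and 1 TEAD word. In the Csf1 window the SMAD palindrome stood with 1 SMAD box, 2 E-boxes and 1 AP-1 site. In the Iffo1 window a SMAD box and an E-box overlapped by 1 base. Neither the Arrdc3 window, the strongest SMAD4 site of all, nor the Pax7 window matched any of these words. The Dpcd window was an array of short repeats in which the units CAGCC and CAGCA occurred 31 times in all, and the Pax7 window held a run of GT repeats. A match is a description of the letters, and no match says only that these letters were missing from the window.

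SMAD4 without added BMP was almost entirely a feature of acetylated chromatin, while only a small part of acetylated chromatin carried it. Of 8577 SMAD4 peaks, 8272 (96.4%, Wilson 95% interval 96.0 to 96.8) lay in H3K27ac and 305 did not. In the other direction, 9.87% of the H3K27ac peaks carried SMAD4 (9.65 to 10.1), and the values from the peak positions of either replicate column alone were both 9.86%. Each column gives positions for the same listed peaks, so this share could hardly differ between them. The Wilson intervals cover counting error over peaks only, and the lists give no read counts behind the peaks. In bulk libraries, a few cells with SMAD4 and a little SMAD4 in every cell cannot be told apart. Of the peaks with SMAD4, 5600 (83.7%) overlapped 1 SMAD4 peak, 813 overlapped 2, 178 overlapped 3, 46 overlapped 4 and 54 overlapped 5 or more, up to 12. Peaks with SMAD4 made up 20.8% of the length covered by H3K27ac and 22.4% of its summed signal.

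The cell type labelled for the cells could be read from H3K27ac. Of 21757 protein-coding genes, 11533 had an H3K27ac peak at the TSS, and 2918 of these genes carried SMAD4 in such a peak. Of 18 marker genes of MuSCs, 17 had such a peak, and only Calcr, a receptor of quiescent MuSCs, had none. SMAD4 was in that peak at 11 of the 17, and of these Pax7 held the most summits. Among markers of other cells, 2 of 6 for fibro-adipogenic cells, 1 of 6 for endothelium, 2 of 6 for immune cells and 0 of 4 for other tissues had an acetylated TSS. The defining genes Pdgfra, Pecam1 and Ptprc had none. The acetylated ones were Dpt, Osr1, Tek, Cd68 and Csf1r, of which Dpt alone carried SMAD4, and the part of other cells in the results was not tested.

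The H3K27ac peaks with SMAD4 were the strong and wide ones. Their median width was 3100 bp (quartiles 2000 to 4800) against 1400 bp (1000 to 2000) without SMAD4, a ratio of 2.21. When the coordinates of either replicate column were used alone, the ratio was 2.42 in both. In H3K27ac signal, a score that the peak caller gave and that is used here only as a rank, the peaks with SMAD4 had a median percentile of 90.7 (80.8 to 96.2) and those without 45.4 (22.6 to 68.7), where 100 is the strongest. The replicate columns gave 90.2 and 90.1 for the peaks with SMAD4. From the weakest to the strongest decile of H3K27ac signal, the share with SMAD4 went from 0.325% (22 of 6779 peaks) to 51.6% (3495 of 6779), and most of the climb fell at the upper end, with 4.91%, 11.6% and 23.9% in the deciles 7, 8 and 9. In the strongest decile, the replicate columns gave 49.9% and 49.8%. That decile held 59.3% of all SMAD4 summits inside H3K27ac.

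Width and signal went together (Spearman's rho 0.787 across the 67790 peaks), so they were crossed. Within the same quintile of signal, peaks with SMAD4 were not wider, except in the strongest, which held 5115 of the 6691 peaks with SMAD4. Signal quintiles 1 to 4 held 52, 117, 287 and 1120 of them. In the signal quintiles 1 to 5, the median widths with SMAD4 were 750, 900, 1300, 1900 and 3700 bp, and without SMAD4 they were 900, 1100, 1400, 1900 and 2800 bp. The ratio was thus below 1 in the 3 weaker quintiles, 1.00 in the next and 1.32 in the strongest. The mean of these ratios, not weighted by the number of peaks, was 0.98. In signal quintile 4, the share with SMAD4 was 12%, 7.97%, 8.59%, 7.77% and 8.49% from the narrowest to the widest quintile, and in signal quintile 5 it rose from 18.8% of 282 peaks in width quintile 2 to 43.0% of 9005 in width quintile 5. Wider peaks have more room for a SMAD4 peak, and SMAD4 summits per kb of H3K27ac fell between these classes, from 0.176 to 0.124. Without regard to signal, summits per kb rose from 0.0206 in the narrowest decile of width to 0.112 in the widest. Within the same width, signal did separate them. Among the narrowest peaks, up to 900 bp, those with SMAD4 had a median signal percentile of 39.3 and those without 15.1, and among the widest the values were 94.3 and 81.8. Signal divided by width still put the peaks with SMAD4 high, at a median percentile of 73.8.

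**Figure D1:**
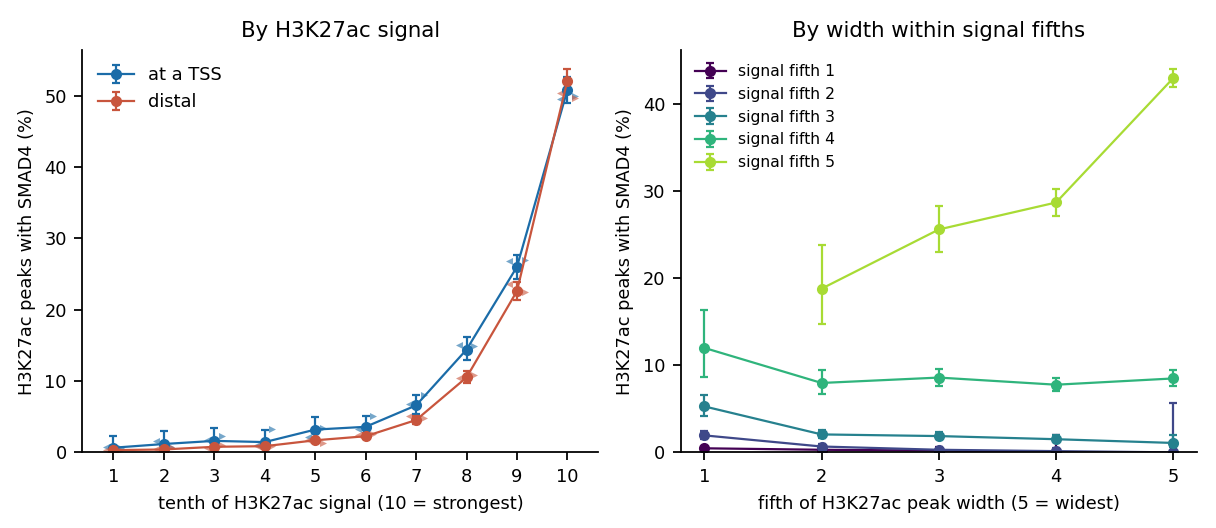
Left, percentage of H3K27ac peaks of control cells with SMAD4 in each decile of H3K27ac signal, at a TSS and at distal sites, with Wilson 95% intervals; triangles give the values from the first and the second replicate column alone. Right, the same percentage by quintile of peak width within each quintile of signal, for classes of 20 or more peaks. The curves on the left climb together to 50.8% at a TSS and 52.1% at distal sites, and on the right the lines are separated by signal, with a slope upward with width in signal quintile 5 only.

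Wide domains were the extreme of this pattern. Of 422 H3K27ac peaks of 10 kb or wider, 350 carried SMAD4, and of 61 of 20 kb or wider, 58 did. These counts take no account of length, and wider peaks have more room for a SMAD4 peak. Among the 100 strongest H3K27ac peaks 74 carried SMAD4, and among the strongest 1000 there were 710. The first by signal, at chr10:107319501-107341100, covered the neighbouring genes Myf6 and Myf5, which encode myogenic regulatory factors, and held 4 SMAD4 summits. Its H3K27ac ranked 15 and 3 in the 2 replicate columns, but its strongest SMAD4 ranked only 4421 among 8577. A strong H3K27ac peak therefore did not have to hold strong SMAD4, and across the 8267 SMAD4 summits inside H3K27ac the signals of both marks had a Spearman's rho of 0.318 (0.268 at a TSS and 0.348 at distal sites, over peaks that share their libraries).

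The peak with the most SMAD4 summits was at Pax7, the gene whose product defines MuSCs. It ran over 38800 bp (chr4:139530801-139569600), ranked 68 by H3K27ac, or 171 and 38 in the replicate columns, and held 12 SMAD4 summits. Its strongest summit lay 10002 bp downstream of the TSS and ranked 10 of 8577, or 16 and 13 in the replicate columns, and another ranked 19. Iffo1 followed with 10 summits in 27600 bp, then Loxl1, for a lysyl oxidase that crosslinks matrix fibres, with 9 in 24500 bp, and Plec, for the cytoskeletal linker plectin, with 9 in 23400 bp. Lmna, for the nuclear lamins A and C, a peak over Cirbp and Midn, and Cxxc5 held 8 each. These were all at a TSS. A peak near Ppara, one at Adcy7 and one in Jph2, for a protein of muscle membrane junctions, held 7 each, and the strongest SMAD4 there ranked 409, 1804 and 509. Number of summits and strength of SMAD4 were thus not the same thing.

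At the TSS, SMAD4 lay in more of the peaks than elsewhere, but strong H3K27ac was also more often at a TSS. Peaks that reached within 2 kb of a protein-coding start were placed at a TSS, and the rest were distal. Of the peaks with SMAD4, 2519 (37.6%, 36.5 to 38.8) were at a TSS, against 8880 (14.5%, 14.3 to 14.8) of those without, a difference of 23.1 percentage points. Within signal quintiles 1 to 5 the difference was 6.76, 4.47, 6.37, 9.49 and 1.83 points. In the strongest quintile, which held 5115 of the peaks with SMAD4, 40.9% with SMAD4 (39.6 to 42.3) and 39.1% without (38.1 to 40.1) were at a TSS, and these intervals overlap. In the strongest decile, SMAD4 was in 50.8% of the 2792 peaks at a TSS (48.9 to 52.6) and in 52.1% of the 3987 distal ones (50.6 to 53.7). The SMAD4 signal itself did not sort by location either: 38.2% of the summits in the weakest decile of SMAD4 and 39.8% of those in the strongest were at a TSS. Distal peaks with SMAD4 lay a median of 36.9 kb from the nearest TSS and those without 39.7 kb, and 19.3% and 22.7% lay farther than 100 kb.

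Inside the H3K27ac peak, the SMAD4 summit lay near the summit of H3K27ac. Of 8267 SMAD4 summits in H3K27ac, 56.9% (55.9 to 58.0) fell in the middle 3rd of the peak's length, with 60.5% at distal sites and 51.3% at a TSS. The median distance from the H3K27ac summit was 144 bp (quartiles 61 to 509), and 59.5% lay within 200 bp of it, where 26.7% lay within 200 bp of the peak's midpoint and such a stretch made up on average 13.9% of the peak. In peaks with 1 SMAD4 summit the median distance was 105 bp and 74.7% lay within 200 bp. This also held for wide peaks with 1 summit: in 1528 peaks of 4 kb or wider, the median was 127 bp and 64.3% lay within 200 bp. Where 2 or more summits shared a peak, the median was 730 bp. Only 8 summits lay within 100 bp of an edge.

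The distances depend on how summits of replicates were joined. With the positions that each replicate column gives, 39.8% and 43.0% of SMAD4 summits lay within 200 bp of that column's H3K27ac summit, at medians of 328 and 270 bp, and 52.4% and 53.1% lay in the middle 3rd of the peak. The summits of the replicates differed by a median of 78 bp in SMAD4 and 187 bp in H3K27ac. In the 2106 cases where both consensus summits were the mean of their replicates, the median distance was 118 bp.

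**Figure D2:**
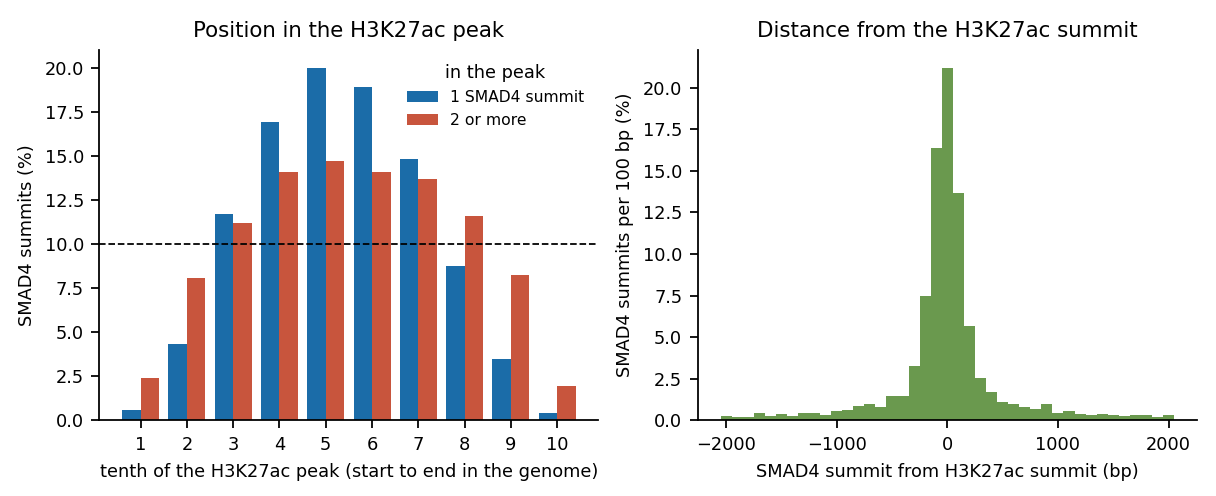
Left, percentage of SMAD4 summits in each 10% of the H3K27ac peak's length, for peaks with 1 SMAD4 summit and with 2 or more; the dashed line at 10% is an even spread. Right, distance in bp of the SMAD4 summit from the H3K27ac summit, as percentage of 8267 summits per 100 bp. The summits gather at the centre of the peak, and 59.5% lie within 200 bp of the H3K27ac summit.

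Along the gene, the SMAD4 summits within 2 kb of a start site centred on it, whereas the H3K27ac summits centred just downstream of it. Of 3195 SMAD4 summits in peaks at a TSS, 2600 lay within 2 kb of it. Their median position was -2 bp (quartiles -123 to 177), and 59.4% of these 2600 lay within 200 bp. H3K27ac summits of peaks with SMAD4 had a median of 89 bp downstream (n = 2218) and those of peaks without SMAD4 137 bp (n = 8117). The H3K27ac summits of the replicates differed by a median of 187 bp, and no values from single replicate columns are given for these positions. Upstream of the TSS were 50.4% of the SMAD4 summits (48.5 to 52.3), 36.2% of the H3K27ac summits with SMAD4 (34.2 to 38.2) and 25% of those without (24.1 to 25.9). The consensus summits of all lists lay a median of 26 to 34 bp left of the peak's midpoint on the genome's plus strand, which does not follow the direction of genes.

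**Figure D3:**
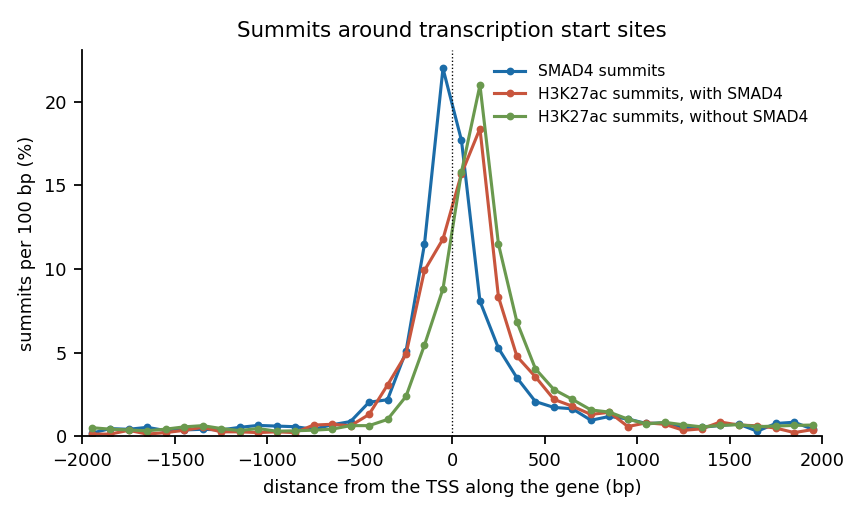
Percentage of summits per 100 bp against the distance from the TSS along the gene, for SMAD4 summits, for H3K27ac summits of peaks with SMAD4 and for those of peaks without. SMAD4 is highest in the 100 bp before the TSS (22.0%), and both H3K27ac curves are highest between 100 and 200 bp after it.

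The words under the SMAD4 summits were counted in windows of 200 bp, on both strands, and compared with windows 500 bp to either side that were still in the same H3K27ac peak and with the summits of H3K27ac peaks without SMAD4. At distal sites, the E-box CAGCTG was more frequent at SMAD4 summits. It was in 41.3% of 5072 SMAD4 windows (40.0 to 42.7), in 13.4% of the neighbouring windows (12.7 to 14.1), in 21.9% of all H3K27ac summits without SMAD4 and in 30.3% of those in the strongest quintile (29.1 to 31.6). AP-1 sites were in 20.2% of the SMAD4 windows (19.1 to 21.3), 5.02% of the neighbours, 11.1% of the summits without SMAD4 and 17% of those in the strongest quintile (16 to 18.1). AP-1 is the FOS and JUN family of stress and growth factors, and CAGCTG is the word that MYOD and its relatives prefer. TEAD words (18.4%, against 15.0% in the strongest quintile without SMAD4) and RUNX words (26.6%, against 21.2%) were also more frequent, by smaller margins. ETS words were not clearly so, at 3.51% (3.04 to 4.05) against 3.19% (2.74 to 3.71). SMAD4 summits and H3K27ac summits are different kinds of position. At the H3K27ac summits of distal peaks with SMAD4, of any signal, the E-box was in 36.1% (34.7 to 37.6) and AP-1 in 16.2% (15.1 to 17.4). There the E-box was still above the 30.3% of the strongest quintile without SMAD4, but AP-1 was not above its 17%. TEAD words were in 17.2% and RUNX words in 25.1% of these H3K27ac summits.

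The SMAD words were more frequent at SMAD4 summits than at strong H3K27ac summits without SMAD4. The SMAD box CAGAC was in 56.7% of the distal SMAD4 windows (55.4 to 58.1) and in 46.4% (45.0 to 47.7) of the distal windows of the strongest quintile without SMAD4. At the H3K27ac summits of distal peaks with SMAD4, the box was in 54.9% (53.4 to 56.4). The palindrome GTCTAGAC was rare, at 1.4% (1.11 to 1.76) against 0.175% (0.0921 to 0.332), with 0.234% in the neighbouring windows. Over distal and TSS windows together, it followed the strength of SMAD4, with 30 of 847 windows (3.54%) in the strongest decile of SMAD4 summits and 2 of 720 (0.278%) in the weakest. The SMAD box went from 48.5% to 60.7% and the E-box from 28.5% to 37.3% from the weakest to the strongest of these deciles. In distal windows alone, the SMAD box went from 54.2% to 65.1% and the E-box from 34.2% to 42.0%. The GC-rich words were in 21.5% of the distal SMAD4 windows (20.4 to 22.7) and 16.2% without SMAD4 in the strongest quintile (15.2 to 17.2), and GC content moved with them, at 53.2% and 49.6%. The part of base composition in these shares was not tested.

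At a TSS the picture differed in part. The E-box was in 20.8% of 3195 SMAD4 windows (19.4 to 22.2), against 12.3% of the strongest quintile without SMAD4 and 12.1% of the windows at all 21757 protein-coding TSSs. AP-1 sites were in 7.26% against 2.70% and 2.89%, and SMAD boxes in 43.5% against 33.4% and 37.1%. The palindrome was in 0.563% against 0.0606% and 0.0919%. The GC-rich words were less frequent than in strong peaks without SMAD4, with 40.5% (38.8 to 42.2) at SMAD4 summits and 45.7% (44.0 to 47.4) in the strongest quintile without SMAD4, where all TSSs gave 34.9%. ETS words, common in promoters of housekeeping genes, were also less frequent, at 13.9% against 18.5% and 15.2%. The windows 500 bp beside the SMAD4 summits gave another picture, with GC-rich words in 28.4% and ETS words in 7.35%, both lower than at the summits. GC content was 62.7% at SMAD4 summits, 55.8% beside them, 65.1% in the strongest quintile without SMAD4 and 58.3% at all TSSs. TEAD words were in 9.77% against 6.39% and 7.99%, and RUNX words in 11.4% against 7.15% and 9.79%, but beside the summits they stood at 9.42% and 10.6%, so that these shares hardly differed from those at the summits. At the H3K27ac summits of TSS peaks with SMAD4, the E-box was in 15.6%, AP-1 in 5.44% and the SMAD box in 39.5%.

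**Figure D4:**
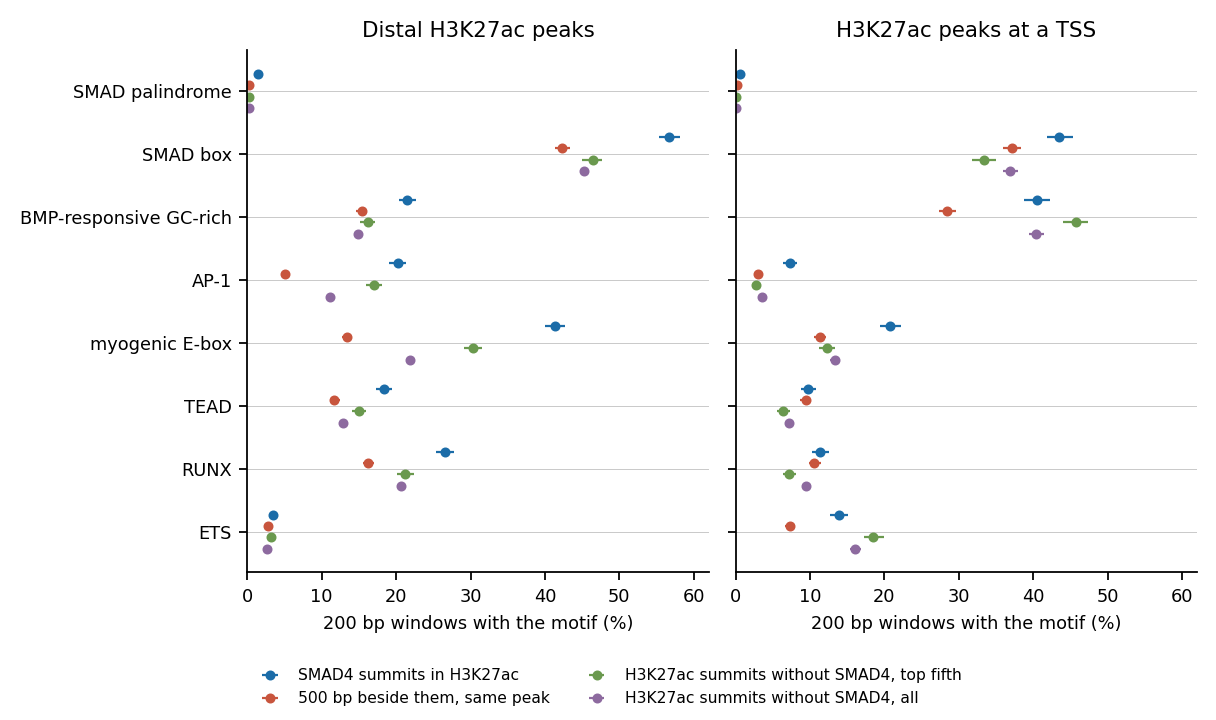
Percentage of 200 bp windows with each word, with Wilson 95% intervals, in distal H3K27ac peaks (left) and H3K27ac peaks at a TSS (right), for SMAD4 summits, windows 500 bp beside them, and H3K27ac summits without SMAD4 in the strongest quintile and in all. The E-box and AP-1 points of the SMAD4 summits lie to the right of the other sets in both panels, and at a TSS the GC-rich and ETS points lie left of those of the strongest class without SMAD4.

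The 305 SMAD4 peaks outside H3K27ac differed in sequence. Of their windows, 21.6% (17.4 to 26.6) held a perfect tandem repeat of at least 24 bp with a unit of 1 to 6 bases, against 2.47% (2.15 to 2.82) of the SMAD4 windows inside H3K27ac and 4.32% of H3K27ac summits without SMAD4. The E-box was in 14.8% of them and AP-1 in 4.92%, both lower than inside H3K27ac, and the SMAD palindrome was in 3.28% (1.79 to 5.93). They were more frequent among weak SMAD4 peaks, since 83.9% of the weakest decile by SMAD4 signal lay in H3K27ac and 98.7% of the strongest. The measure of repeats was chosen after the sequences above had been seen.

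Among the 10 strongest SMAD4 sites in H3K27ac peaks at a TSS, those of Skil and Smad7 belonged to the list of TGF-beta and BMP targets, and they alone had their summit within 2 kb of the start. The first was 2351 bp downstream of the start of Arrdc3, for an arrestin-domain adaptor, at an H3K27ac peak of 2900 bp (chr13:81032501-81035400), and ranked 1 by SMAD4 in both replicate columns. The second was 22 bp upstream of the TSS of Skil, for the SMAD corepressor SnoN, and ranked 2 in both. Loxl1 ranked 4 overall (7 and 4) with its summit 17267 bp downstream, and Smad7, for the inhibitory SMAD of both branches, ranked 15 (23 and 15) with its summit 88 bp upstream of the TSS. The others lay in wide peaks that reach a TSS, at a distance from it: over Cirbp and Midn (rank 6, at -5958 bp from the start of Cirbp), in Cxxc5 (7, at 11854 bp), in Pax7 (10 and 19, at 10002 and 2889 bp), at Ccn4, for a matricellular protein (17, at -7820 bp), and in Lmna (24, at 10997 bp). In distal peaks, the strongest was the repeat-rich site near Dpcd (rank 3 in both columns), followed by sites 178775 bp from Gadd45g (5), near Mok (8), at -16031 bp from Csf1 (9), near Tmem121 (11), near Gpr6 (12), in an intron of Tbc1d1 (13), near Cimip1 (14), near Egfl6 on the X chromosome (16) and near Gm5148 (18). The distal peaks were not all strong in H3K27ac, which ranked 15374 near Gpr6, 9029 near Csf1 and 7183 near Cimip1, and their names give only the nearest start, which need not be the gene they act on. A pair of these distal summits lay far from the H3K27ac summit, by 1675 bp near Tmem121 and 1125 bp near Egfl6, and the other 8 lay within 117 bp of it.

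Weak H3K27ac peaks with SMAD4 were also examined, since they go against the general pattern. The weakest 10 by H3K27ac ranked between 63845 and 67176 and measured 500 to 900 bp. They lay near Chgb, Atp8b4, Ier3, Coro2b, Hrh1, Eif4g3, Dusp22, Lgals2, Ucp2 and Bmpr1b, of which Lgals2 and Ucp2 were at their TSS, and each held 1 summit. Their SMAD4 ranked between 3488, near Ier3, and 8385, near Chgb, of 8577, with -log10 of the IDR between 1.31 and 2.14, where the lists begin at an IDR of 0.05.

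Among protein-coding genes, 11533 had H3K27ac at the TSS, and 2918 of them (25.3%) had SMAD4 in such a peak. SMAD4 counted anywhere in an H3K27ac peak that reached within 2 kb of the TSS, so its summit could lie farther away. Where the strongest of these H3K27ac peaks was in the strongest quintile by signal, the share was 39.8% (2448 of 6158). Gene lists are set beside both values, because lists differ in how strong their H3K27ac is.

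Targets and feedback genes of TGF-beta and BMP had a share above that background. Of 20 genes, 18 had an acetylated TSS and 13 of these (72.2%, 49.1 to 87.5) carried SMAD4, and in the strongest quintile 12 of 14 did. Their TSS peaks were also strong and wide, with a median H3K27ac percentile of 93.2 and a median width of 7500 bp, against 81.5 and 2100 bp over all acetylated genes. Id1, which blocks E-box factors, held 4 SMAD4 summits in a peak of 10100 bp, the strongest at -1112 bp from the TSS and ranked 630 of 8577 (657 and 658 in the replicate columns). Id3 held 5, with a best rank of 1032 (1142 and 1038), and Id2 held 2, with 2469 (4382 and 1089). Id4 had a weak peak of 800 bp and no SMAD4. Several inhibitors of the pathway stood higher than the Id genes, as Smad7 and Skil did above. Smad6, the inhibitory SMAD of the BMP branch, ranked 30 (32 and 28) with its summit 45 bp downstream of the TSS, although its H3K27ac ranked only 12850. Pmepa1, a TGF-beta feedback inhibitor, ranked 62 (71 and 56). Bambi, a pseudoreceptor, ranked 2590, Ski, the relative of SnoN, 1678, and Tgif1, another corepressor, 2757. Ccn1 and Ccn2, which encode matricellular proteins and are known targets of TGF-beta, ranked 366 and 4464. SMAD4 was not listed at the TSS of Id4, Atoh8, Tgfbi, Nog or Fstl1, and Grem1 and Fst had no acetylated TSS.

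For the components of the pathway the share at the TSS was not above the background. Of 18 genes for receptors and SMADs all had an acetylated TSS, and 4 (22.2%, 9.00 to 45.2) carried SMAD4, near the 25.3% of all such genes. Their median percentile was 78.0 and their median width 2400 bp. They were Bmpr2, the type II BMP receptor, at rank 157 (199 and 140), Tgfbr1 at 6013, Smad2 at 2182 (4804 and 792, with a -log10 IDR of only 1.33) and Smad5 at 6583. Bmpr1a, Acvr1, Tgfbr2, Smad1, Smad3 and Smad4 itself had none there. Of 14 ligand genes, 6 had an acetylated TSS (Tgfb1, Tgfb2, Tgfb3, Inhba, Mstn and Gdf11) and 0 carried SMAD4, although H3K27ac at Tgfb2 and Tgfb3 lay at the percentiles 96.6 and 96.1. With so few genes, the interval of 0 to 39.0% includes the 25.3%. Of 8 ligand genes with a distal H3K27ac peak within 20 kb, 3 had SMAD4 in such a peak.

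Notch pathway genes carried SMAD4 in an H3K27ac peak at the TSS without added BMP in 10 of 16 acetylated cases (62.5%, 38.6 to 81.5), and in 10 of 11 in the strongest quintile. Their median H3K27ac percentile was 90.1 and their median width 4800 bp. The highest was Hes6, a HES family member expressed in myoblasts, at rank 90 (96 and 86), then Hey1, a Notch target, at 473 (344 and 867), 12 bp downstream of the TSS, and the receptor gene Notch3 at 493 (501 and 529), 2592 bp downstream. Hes1 held 3 summits, with a best rank of 1867 (1340 and 3798). The ligand gene Dll1 ranked lower, at 4382, with its summit 4135 bp downstream of the TSS. Heyl at 4315, Maml1 at 5648, Rbpj, for the DNA-binding factor of the pathway, at 6631, Snai1 at 8063 and Notch1 at 8289 were weaker. In this order, their -log10 IDR was 1.54, 1.73, 1.60, 1.30 and 1.38, where the lists begin at an IDR of 0.05. Snai1 and Notch1 were thus close to the end of the list. Notch2, Jag1, Jag2, Hey2, Lfng and Rfng had H3K27ac and no SMAD4 at the TSS.

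Myogenic genes were split. Of the 14 acetylated myogenic regulators, which all were in the strongest quintile of H3K27ac, 9 carried SMAD4, against 39.8% of all genes in that quintile. Their median percentile was 98.8 and their median width 10600 bp. Pax7, Myf5, Myf6, Myod1, Mef2a, Mef2d, Six4 and Tcf3 were among those that did. Myf5 and Myf6 both counted through the same peak, whose strongest SMAD4 summit lay at -13628 bp from the TSS of Myf5 and -4967 bp from that of Myf6. At Mef2d the strongest summit lay 8137 bp downstream of the TSS. Pax3, Myog, which drives differentiation, Eya1, Tcf4 and Tcf12 did not, although Eya1 ranked 251, Myog 1159 and Pax3 1931 by H3K27ac. At Myod1 the SMAD4 summit was 45 bp downstream of the TSS and ranked 1334 (1407 and 1331). Of the acetylated genes for sarcomere, contraction and fusion, 14 of 22 carried SMAD4, among them the fusion genes Mymk and Mymx at ranks 579 and 538, Tnni2 at 434 and Mylpf at 592. The summit of Tnni2 lay at -11567 bp from its TSS.

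AP-1 genes carried SMAD4 in 9 of 10 cases (90.0%, 59.6 to 98.2), and in 7 of 8 in the strongest quintile, at a median percentile of 90.1 and a median width of 5150 bp. Fosl2 ranked 329, Jun 702 with its summit 1 bp upstream of the TSS, Atf3 839, Junb 865 with 6 summits in its peak, and Mafk 245. At Atf3 the H3K27ac peak ranked only 28740. At Fosb and Fosl1, SMAD4 overlapped a TSS peak but no SMAD4 summit lay in the strongest one. Only Maff lacked it. YAP and TEAD genes followed with 8 of 14, including Ankrd1, a YAP target, at rank 1014, and matrix genes with 9 of 19, including Lox at 536 and Sparc at 1141, while Col1a1, Col1a2, Col3a1 and Fn1 had none. Cell cycle genes reached 7 of 17, and 5 of 14 in the strongest quintile, near its background of 39.8%. Cdk4 ranked 1196 there, and Myc, Cdkn1a and Cdkn1b had strong H3K27ac and no SMAD4. The cytosolic ribosomal protein genes, the reference for steadily active promoters, were at the background with 19 of 78 (24.4%, 16.2 to 34.9) and below it in the strongest quintile, at 16 of 62 (25.8%). Their H3K27ac was strong, at a median percentile of 87.9, but their peaks had a median width of 2900 bp. How much of the differences between lists goes with the width and strength of the H3K27ac peak was not tested beyond the strongest quintile.

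**Figure D5:**
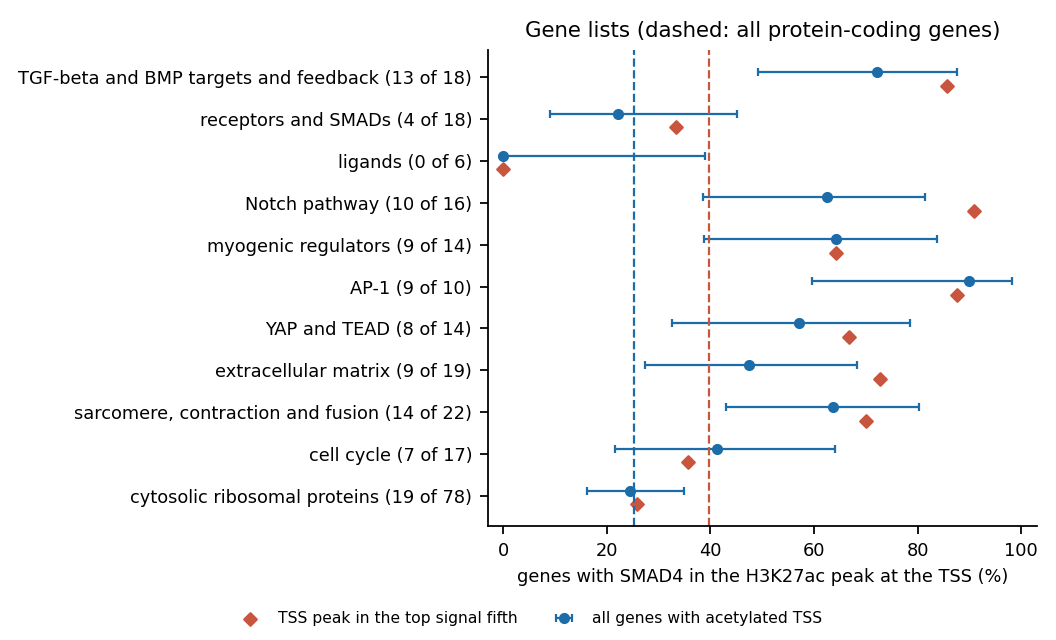
Percentage of genes with SMAD4 in the H3K27ac peak at their TSS, per list, with the count and its Wilson 95% interval (circles), and the percentage among genes whose TSS peak is in the strongest quintile of signal (diamonds); dashed lines give the same values over all protein-coding genes, 25.3% and 39.8%. AP-1, TGF-beta and BMP targets, sarcomere, myogenic, Notch, YAP and TEAD, and matrix lists lie right of the first line with their whole interval, and cell cycle, ribosomal proteins, receptors and ligands do not.

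Around the genes, distal H3K27ac within 20 kb of the gene body carried SMAD4 for 3007 of 12885 genes (23.3%). The share was 10 of 17 for TGF-beta and BMP targets, 8 of 15 for myogenic regulators, 7 of 17 for Notch genes, 11 of 20 for matrix genes and 4 of 55 for ribosomal protein genes, but long genes have more such peaks: the median gene length was 9.65 kb for the targets, 29.8 kb for the myogenic regulators, 37.1 kb for the matrix genes and 3.45 kb for the ribosomal proteins, against 16.3 kb overall. Per distal peak, 21.0% (22 of 105) carried SMAD4 at the targets, 10.7% at the myogenic regulators, 11.9% at Notch genes, 12.2% at matrix genes and 3.15% at ribosomal proteins, against 7.02% of 60655 over all genes. Receptors and SMADs reached 11.1% and ligands 12% here. With TSS and distal peaks together, SMAD4 was in an H3K27ac peak within 20 kb for 6716 of the 21757 protein-coding genes, and for 16 of 20 targets, 15 of 20 Notch genes, 15 of 20 matrix genes and 12 of 15 myogenic regulators.

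The X chromosome stood apart. Of its 4571 H3K27ac peaks, 4.07% (3.53 to 4.68) carried SMAD4, against 10.3% (10.1 to 10.5) on the autosomes, which ranged from 7.01% on chromosome 14 to 14.3% on chromosome 19. In the strongest quintile of H3K27ac signal the values were 18.1% (15.8 to 20.7) and 39.1%, and with signal ranked within each chromosome they were 18.1% and 39.2%. In the widest quintile they were 21.9% (18.6 to 25.5) and 31.3%. H3K27ac on the X reached very high signal, with 48 of the 100 strongest peaks and 259 of the strongest 1000 there, although it held 6.74% of all H3K27ac peaks, while SMAD4 on the X held 2 of its 100 strongest. Whether the caller's signal has the same scale on every chromosome is not given in the sources used here. Of 262 SMAD4 peaks on the X, 46 lay outside H3K27ac.

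The 10 strongest H3K27ac peaks without SMAD4 were all on the X, at or near Atg4a, Drp2, Xiap, Msn with 2 peaks, G6pdx, Stag2, Slc6a8, Egfl6 and Rps6ka3. The strongest autosomal ones, looked up after this had been seen, were at or near Zfhx4 (rank 39, or 270 and 10 in the replicate columns), Strn3 (41), Ccdc83 (53), Cux1 (55), Spaca7b (80), Phyhd1 (133), Pde4dip (142), Tns1 (160), Ptcd2 (163) and Pkdcc (187). Of these, Zfhx4 and Phyhd1 were at a TSS. The 10 widest without SMAD4 ran from 14400 to 43000 bp. They included domains in Myh9, a nonmuscle myosin (22700 bp), Actn4, a nonmuscle actinin (20800 bp), Tns3, Zbtb20, Col5a1 and Abcc1. Several of these ranked low for their width, such as 15107 in Col5a1 and 10321 near Ppara.

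The same H3K27ac peaks were then looked up in lists that the division had not used. After 1 h of 100 ng/mL BMP6, an H3K27ac peak was listed at 99.6% of the peaks with SMAD4 and at 85.4% of those without. A SMAD4 peak was listed at 75% of the peaks with SMAD4 (73.9 to 76.0) and at 7.56% of the others, and a pSMAD1/5/9 peak, the phosphorylated SMADs of the BMP branch, at 55.9% (54.7 to 57.1) and 3.70%. In the strongest quintile of H3K27ac, SMAD4 after BMP6 was at 80.3% against 29.6%, and pSMAD1/5/9 at 63.8% (62.5 to 65.1) against 17.2% (16.4 to 18). Before BMP6, pSMAD1/5/9 was listed at 765 of the 6691 peaks with SMAD4 (11.4%) and at 107 of the 61099 others (0.175%), so most peaks with SMAD4 had no listed pSMAD1/5/9 in the same cells. Among peaks with SMAD4, pSMAD1/5/9 was somewhat more frequent at a TSS than at distal sites, with 59.6% (57.7 to 61.5) against 53.6% (52.1 to 55.2) after BMP6 and 13.3% (12.1 to 14.7) against 10.3% (9.40 to 11.2) before. Among peaks without SMAD4, the values after BMP6 were 9.93% at a TSS and 2.64% at distal sites. A peak missing from a list is below its threshold, which differs between antibodies. In the BMP6 lists themselves, 12.4% of 78050 H3K27ac peaks and 34.5% of genes with an acetylated TSS carried SMAD4, both above the control values. The width ratio was 2.20, the median signal percentile was 89.9, 37.0% against 12% were at a TSS, and 56.8% of SMAD4 summits lay within 200 bp of the H3K27ac summit. No test between conditions was made, since each condition has 1 list.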

How the data were processed

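CUT&Tag reads of SMAD4, phosphorylated SMAD1/5/9 and H3K27ac were, by the study's methods, subsampled to equal depth per antibody by the authors and aligned to GRCm39 with Bowtie2 2.5.4. SAMtools 1.21 and bedtools 2.31.1 are named in the submitters' processing notes. Per replicate, JAMM called peaks ("filtered" for SMADs, "all" for H3K27ac), and IDR joined replicates at 0.05. The deposited signal score in each list is the sum of the 2 replicates' JAMM scores as the authors' pipeline wrote it, and the deposited -log10 IDR ends at 5. Read counts are not in the lists, so the depth kept after subsampling is not known here. Both replicates of an antibody and condition enter 1 list, so no test between groups was made. Values were also computed from the positions and scores of each replicate column, always over the same listed peaks. Labels also give a batch per replicate, so batch and replicate cannot be told apart.

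Overlaps (minimum 1 bp), ranks, summit distances and words were computed with Python 3.11.15, pandas 2.3.3, numpy 2.4.6, scipy 1.17.1, pysam 0.24.0 and matplotlib 3.10.9, and overlaps were checked with bedtools 2.31.1. Scripts were tested on simulated data. Starts came from GENCODE (canonical transcripts of 21757 protein-coding genes) on GRCm39. Ranks run from 1, the strongest. Named genes were all members of the gene lists and the first 10 peaks of each ranking. The division, lists and rankings were chosen with earlier results of these data known. Alternatives were a stricter IDR, each replicate column, other TSS and summit definitions, merged peaks, autosomes and classes of width and signal. Values of some genes are not reported here.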

Additional observations from a re-analysis of the deposited data

How the results depend on the processing

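Of 78 alternatives, 1 turned a value's direction and 45 moved it beyond its spread or, for shares of peaks or genes with SMAD4, by over 1.5 times. The spread was the standard deviation of the values from the 2 replicate columns, over the same listed peaks. For words it was the margin of the Wilson interval at distal SMAD4 summits. The spread was 0 for the width ratio, 0.0355 for the percentile and 0.0177 for the TSS difference, so very small shifts counted as moved. It does not measure variation between replicates. The other 32 stayed within these bounds, among them 12.5% of peaks with H3K27ac at an IDR of 0.01, 10.3% on autosomes and 26.6% of genes with all basic transcripts. With SMAD4 at an IDR of 0.01 or less, the share of H3K27ac peaks with SMAD4 was 4.48%, the width ratio 2.64, the median signal percentile 94.0, the share in the middle 3rd of the peak 57.6% and the share of acetylated genes 11.8%, so the shares depend on the list's threshold. With H3K27ac at that IDR, the width ratio was 1.94, the percentile 88.2 and the TSS difference 20.3 points. The width ratio turned within signal quintiles as an unweighted mean (0.98), although it was 1.32 in the strongest quintile. It was 2.38 at distal sites and 1.67 at a TSS. The percentile was 90.5 with peaks merged, 73.8 as signal per width, 89.9 at distal sites, 72.3 within width quintiles and 91.0 within chromosomes. The TSS difference was 23.2 with peaks merged, 22.6 on autosomes, 23.4 with 1 kb, 19.5 by midpoint and 24.3 with all basic transcripts. It shrank to 15.5 within width quintiles, 5.78 within signal quintiles and 1.83 in the strongest quintile. The share in the middle 3rd was 56.3% with peaks merged, 61.2% with 1 summit, 60.5% at distal sites, 54.2% in peaks of 2 kb or wider and 61.1% where summits were replicate means. With the positions and scores of either replicate column, over the same listed peaks, the width ratio was 2.42 and the percentile 90.1 to 90.2. The middle share was then 52.4% to 53.1%.

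For the distal difference in words, windows of 100 bp gave 9.99 points for the SMAD box, 3.73 for GC-rich words, 5.85 for AP-1, 13.1 for the E-box, 3.51 for TEAD and 0.273 for ETS. Set against the strongest quintile without SMAD4, GC-rich words gave 5.33, AP-1 3.16, the E-box 11, TEAD 3.40 and ETS 0.321. Percentiles within chromosomes, the strongest quintile and summits at replicate means were chosen after seeing the data. Where no value above shows a cause, the cause was not tested. No paired analysis was possible because the lists pool the replicates, their columns carry no replicate number and the results come from no test.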
